A study of Mus musculus with 24 samples.

Results

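The respiratory chain and ATP synthase of the inner mitochondrial membrane are built from a few subunits encoded by mitochondrial DNA and many encoded in the nucleus. The nuclear genes described here were the protein-coding genes whose symbol begins with *Nduf*, *Uqcr*, *Atp5* or *Cox4* to *Cox8*, together with *Sdha*, *Sdhb*, *Sdhc*, *Sdhd* and *Cyc1*, and that had at least 240 counts summed over 24 libraries. They numbered 91 of the 56884 genes in the count table. Of these, 45 belong to complex I, 4 to complex II, 9 to complex III, 15 to complex IV and 18 to complex V, the ATP synthase. The complex I genes comprise 7 core subunits, 30 further subunits and 8 assembly factors (*Ndufaf*), which help to build the complex but are not part of it. A further 8 protein-coding genes carried such symbols but fell below 240 counts, among them the isoform genes *Cox6b2* (146 counts), *Ndufa4l2* (17 counts) and *Cox4i2* (8 counts). The member with the lowest total, *Cox5b-ps*, had 320 counts, and 61.2% of its 100-base stretches occur elsewhere in the genome.

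Complex I (NADH dehydrogenase) and complex II (succinate dehydrogenase) pass electrons to ubiquinone, complex III hands them to cytochrome c, and complex IV (cytochrome c oxidase) reduces oxygen. Complexes I, III and IV pump protons, and ATP synthase uses the resulting gradient to make ATP. Macrophages stimulated with IL-4 and IL-13 are known for their reliance on oxidative metabolism.

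RNA-seq had been performed on bone marrow–derived macrophages (BMDM) of 4 wild-type C57BL/6J female mice aged 9 weeks, differentiated with M-CSF for 6 days. Each mouse, numbered 1, 2, 4 or 5, gave 1 library in each of 6 groups. Naive macrophages (M0) were left unstimulated, and the other groups received IL-4 and IL-13 at 20 ng/ml each for 24 hours, alone (M2) or with inhibitors. The inhibitors were first given for 1 hour without the cytokines and then together with them for the 24 hours. These were tunicamycin (Tunica, 5 µg/ml), which blocks N-linked glycosylation in the endoplasmic reticulum, Sal003 (10 µM), which blocks dephosphorylation of the translation factor eIF2α, and oligomycin (1 µM), which binds the membrane ring of ATP synthase. A total of 8 libraries had oligomycin, and 4 of these also had ISRIB (1 µM), which relieves the block of translation caused by phosphorylated eIF2α. The labels conflict on which: the sample titles and treatments give ISRIB to the libraries named Oligo, whereas the library names give it to those named Oli_ISR. They are therefore called Oligo and Oli_ISR libraries, and the conflict was left undecided. No cell type other than the macrophage is given in the labels.

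Reads on genes numbered 16238727 to 26725278 per library (median 18999998). The 7 macrophage markers examined summed to 14470 to 50600 TPM across the libraries (counts corrected for annotated exon length and library size). Their sum was 44550 to 50600 TPM in naive and 15410 to 17850 TPM in M2 libraries. The highest of the other marker lists, the neutrophil one, reached at most 155 TPM. It ranged from 88.1 to 155 TPM in naive and from 0.17 to 1.19 TPM in tunicamycin libraries. Its part in the results was not tested. In bulk RNA, fewer cells of a type and less RNA per cell cannot be told apart. The naive library of mouse 2 stood apart: it was the highest of the 4 naive libraries for 85 of 91 members, against 36.4% of all genes tested, with a median log2 deviation from the other 3 of 0.47 over members. That deviation was 0.18 over genes with less than 1 kb of exon and -0.09 over genes with more than 5 kb. The counts, medians and largest changes against naive macrophages are therefore given again without it.

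IL-4/IL-13 raised most of the respiratory chain and ATP synthase genes. Of the 91 members, 78 were higher in IL-4/IL-13–treated than in naive macrophages and 0 were lower, by edgeR's quasi-likelihood test at a Benjamini-Hochberg adjusted *P* under 0.05. Over all 13679 genes tested, 30.1% were higher and 30.4% lower, the background against which the members' count is read. The median log2 fold change was 0.66 over the members and -0.02 over all genes tested. At 2.5-fold, 3 members were higher (background 5.39%) and 0 lower (background 6.08%). The 4 stimulated libraries lay above the 4 naive ones without overlap for 61 members (background 25.1%) and below them for 0 (background 24.6%). Without the naive library of mouse 2, 87 members were higher and 0 lower, against 33% and 30.6% of 13818 genes then tested, with a median of 0.81 over the members. At 2.5-fold 4 were then higher (background 5.6%), and 86 lay above the naive libraries without overlap (31.4% of the 13679 genes).

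By complex, 35 of 45 complex I genes were higher, as were all 4 of complex II, all 9 of complex III, 13 of 15 of complex IV and 17 of 18 of complex V. The median log2 fold change was 0.50 over the 37 complex I subunits, 0.87 over complex II, 0.90 over complex III, 0.73 over complex IV and 0.74 over complex V. Without the naive library of mouse 2 these medians were 0.63, 0.94, 1.10, 0.90 and 0.87, and 43 of 45 complex I genes, 13 of 15 of complex IV and all of complexes II, III and V were higher. The genes not called included *Atp5if1*, the inhibitor of ATP synthase (log2 fold change 0.17, edgeR adjusted *P* = 0.078, but 0.33 and 4.1e-07 without the naive library of mouse 2), and *Cox7a2l*, a factor for the joining of complexes III and IV (log2 fold change -0.11, or 0.06 without that library, not called in either).

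With all libraries the largest rise was that of *Atp5f1b* (ENSMUSG00000025393, chr10:127919132-127926261), which encodes the catalytic β subunit of ATP synthase. In naive macrophages it had 374, 472.9, 404.3 and 388.3 CPM (counts scaled to library size) in mice 1, 2, 4 and 5, the order used throughout. With IL-4/IL-13 it had 1009, 1045, 1096 and 1052 CPM. The groups did not overlap, and the log2 fold change was 1.36 (SE 0.05, edgeR adjusted *P* = 8.5e-17). *Cyc1* (ENSMUSG00000022551, chr15:76227204-76230462), the cytochrome c1 of complex III, had 62.3, 74.6, 58.2 and 57.1 CPM in naive macrophages and 159, 157, 151.8 and 163 CPM after IL-4/IL-13. Again every stimulated library was above every naive one, with a log2 fold change of 1.32 (SE 0.06, edgeR adjusted *P* = 1.3e-15). *Atp5mc3* for subunit c (1.35) and *Atp5f1a* for the α subunit (1.15) completed the largest rises on the log2 scale. Without the naive library of mouse 2 the values were 1.45 for *Atp5f1b*, 1.43 for *Cyc1*, 1.53 for *Atp5mc3* and 1.22 for *Atp5f1a*.

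The inhibitors, added with IL-4/IL-13, lowered most of the same 91 genes, each against IL-4/IL-13 alone. The 4 comparisons share the same M2 libraries, so their values are given side by side. With tunicamycin 69 members were lower and 8 higher (background 37.6% lower and 38.7% higher). The Oligo libraries had 72 lower and 5 higher (background 32.2% and 34%). Sal003 gave 50 lower and 3 higher (background 24.6% and 25.9%), and the Oli_ISR libraries had 58 lower and 3 higher (background 26.4% and 27.9%). The 3 rises with Sal003 became 1 without mouse 1 or without mouse 5.

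The median log2 fold change of the members was -0.60 with tunicamycin, -0.59 in Oligo, -0.25 with Sal003 and -0.35 in Oli_ISR libraries, while that of all genes tested lay between 0.003 and 0.007. The groups did not overlap, with the inhibitor libraries below, for 70 members with tunicamycin (background 36.1%), 57 with Sal003 (24.3%), 74 in Oligo (31.5%) and 66 in Oli_ISR libraries (24.6%). They lay above without overlap for 9 members with tunicamycin (background 37.8%), 6 with Sal003 (26%), 6 in Oligo (33.3%) and 4 in Oli_ISR libraries (26.2%). At 2.5-fold, 5 members were lower with tunicamycin (background 14%) and 5 in Oligo libraries (background 7.96%), against 0 with Sal003 (background 5.04%) and 0 in Oli_ISR libraries (background 5.02%). Those lower by 2.5-fold with tunicamycin were *Uqcrh*, *Sdhd*, *Atp5me*, *Atp5mc3* and *Cox7a1*, and in Oligo libraries *Uqcr11* stood in place of *Sdhd*. The single member higher by 2.5-fold was *Cox6a2* in each group (background 8.56% with tunicamycin, 2.68% with Sal003, 4.79% in Oligo and 2.94% in Oli_ISR libraries).

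**Figure D1:**
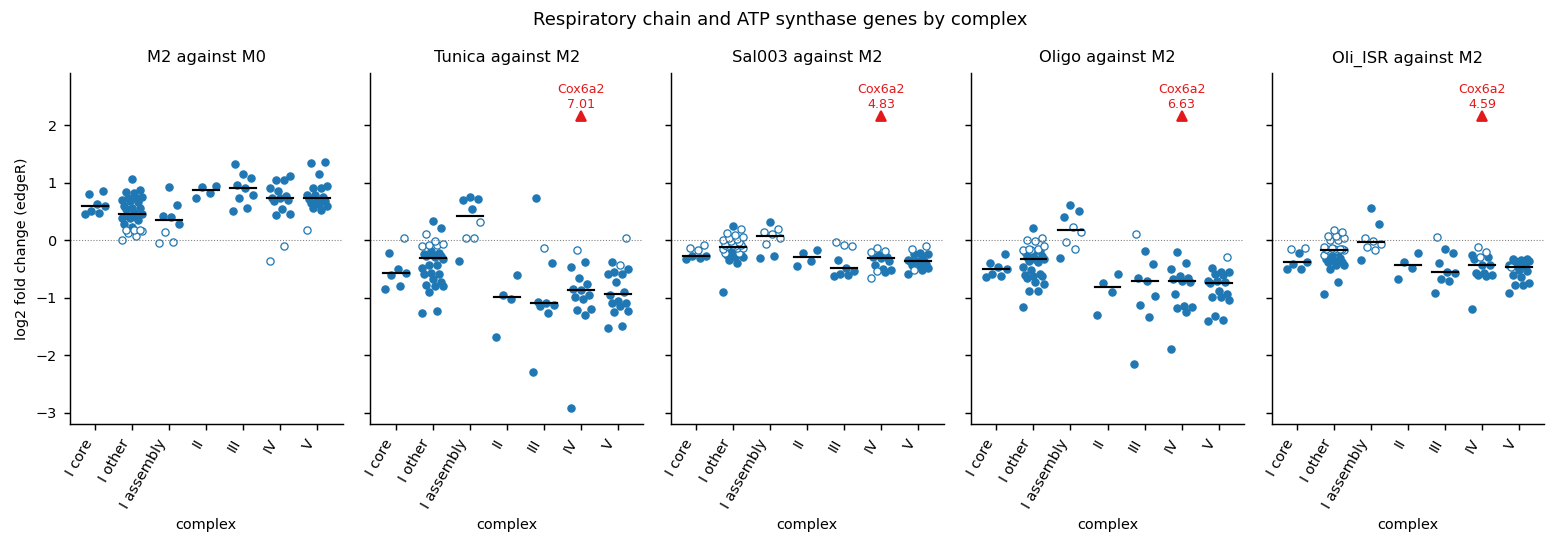
Log2 fold change (edgeR, vertical axis) of each of the 91 genes, grouped by complex on the horizontal axis, for IL-4/IL-13 against naive macrophages (M2 against M0) and for the 4 inhibitor groups against IL-4/IL-13 alone. Filled points passed an adjusted P of 0.05, open points did not, and bars are medians. The axis ends above 2, and *Cox6a2* is drawn as a triangle with its value beside it (7.01, 4.83, 6.63 and 4.59). Most points lie above 0 in the first panel and below 0 in the others.

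The values here are RNA levels and do not give the protein levels of the complexes. The genes of complex I were the least lowered. With tunicamycin 28 of its 37 subunits were lower and 2 higher, with a median log2 fold change of -0.43, against -0.99 over complex II, -1.10 over complex III, -0.86 over complex IV and -0.93 over complex V. In Oligo libraries 28 of 37 were lower and 1 higher, with a median of -0.38, against -0.82, -0.71, -0.71 and -0.74 over complexes II to V. These medians are a description, and their difference was not tested. The background was 37.6% lower and 38.7% higher with tunicamycin and 32.2% and 34% in Oligo libraries.

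Sums were taken over the members of a complex other than the *Ndufaf* genes, here called its subunits. The complex V sum thus includes the inhibitor gene *Atp5if1*, and the complex IV sum *Cox7a2l* and *Cox5b-ps*. In TPM these sums were lower in each inhibitor group than in M2. TPM here divides by all annotated exons of a gene, which can exceed its canonical transcript. This was 9416 against 503 bases for *Cox6c*, but 712 against 571 for *Cox6a1*. The sums thus weight genes by annotation as well as by level. Complex V subunits summed to 4122 ± 63 TPM with IL-4/IL-13 (SD, n = 4), 2170 ± 233 TPM in naive macrophages, 2444 ± 15 TPM with tunicamycin, 3152 ± 109 TPM with Sal003, 2594 ± 37 TPM in Oligo and 2906 ± 108 TPM in Oli_ISR libraries. Complex I subunits summed to 3252 ± 101 TPM with IL-4/IL-13, 2576 ± 383 TPM in naive macrophages, 2757 ± 50 TPM with tunicamycin and 2654 ± 80 TPM in Oligo libraries. Relative to M2 of the same mouse, all subunits together stood at 0.62 ± 0.08 in naive macrophages, 0.72 ± 0.01 with tunicamycin, 0.81 ± 0.02 with Sal003, 0.72 ± 0.03 in Oligo and 0.78 ± 0.03 in Oli_ISR libraries. These sums include the complex IV gene *Cox6a2*, which rose with the inhibitors. It had 2.04 to 6.04 TPM in M2, 583.2 to 617.9 TPM with tunicamycin and 429.2 to 508.8 TPM in Oligo libraries. With Sal003 it had 102.7 to 132.1 TPM and in Oli_ISR libraries 84 to 117 TPM. The sums of the other subunits thus fell further, and ratios without *Cox6a2* were not computed. In CPM, which is not divided by length and was scaled by TMM factors, the tunicamycin value of all subunits was 0.59 and the Oligo value 0.62. Without the naive library of mouse 2 the naive TPM ratio was 0.58.

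**Figure D2:**
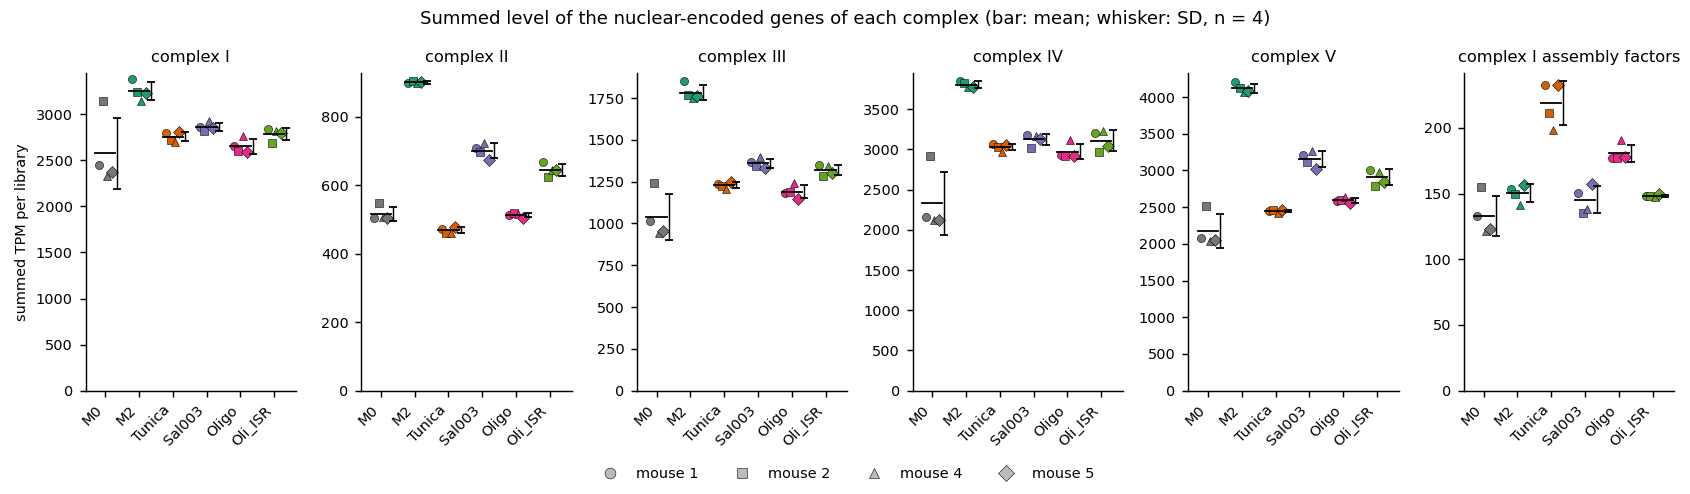
Summed TPM per library (vertical axes, from 0) of the subunits of complexes I to V and of the 8 complex I assembly factors, by group, with 1 point per mouse, the mean as a bar and the SD as a whisker (n = 4). The M2 libraries are highest for complexes II to V, the naive library of mouse 2 lies above the other naive libraries, and the assembly factors are highest with tunicamycin. The complex IV sum includes *Cox6a2*, and the complex V sum includes *Atp5if1*.

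Among the 4 genes of complex II, all rose with IL-4/IL-13 (background 30.1%). All were lower in each of the 4 inhibitor groups (background 24.6% to 37.6%). *Sdhd* (ENSMUSG00000000171, chr9:50507642-50515195), a membrane anchor of the complex, had 204.9, 208.5, 206.3 and 203 CPM with IL-4/IL-13 and 64.2, 61.2, 63.6 and 65.8 CPM with tunicamycin. It had 151.5, 149.4, 158.6 and 143.6 CPM with Sal003 and 82.9, 85.3, 85.7 and 79.6 CPM in Oligo libraries. In Oli_ISR libraries the level was 137, 122.5, 128.6 and 127.9 CPM.

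No library of an inhibitor group reached the range of *Sdhd* in the M2 libraries, and tunicamycin and Oligo libraries also lay below all naive ones (98.3 to 121.3 CPM). The log2 fold changes against M2 were -1.69 (SE 0.05) with tunicamycin, -1.30 (SE 0.05) in Oligo, -0.67 (SE 0.05) in Oli_ISR and -0.45 (SE 0.05) with Sal003, with edgeR adjusted *P* of 1.3e-19, 6.7e-17, 4e-11 and 5.5e-08. The flavoprotein gene *Sdha* fell by 1.03 on the log2 scale with tunicamycin and by 0.75 in Oligo libraries. *Sdhb*, the iron-sulfur subunit, fell by 0.96 and 0.59 and *Sdhc*, the other anchor, by 0.61 and 0.89.

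Complex III held both the deepest fall with tunicamycin among well-counted members and a subunit gene that was higher. *Uqcrh* (ENSMUSG00000063882, chr4:115923314-115932296) encodes the hinge protein, a small subunit that binds cytochrome c1. It had 130.4, 121.6, 126.3 and 116.2 CPM with IL-4/IL-13, and 25.6, 26.2, 23 and 26 CPM with tunicamycin. In Oligo libraries it had 28.8, 26.4, 29.7 and 26.3 CPM, in Oli_ISR libraries 63.5, 64.3, 69.9 and 64.5 CPM, and with Sal003 76.6, 79.2, 88.4 and 75.2 CPM.

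All inhibitor libraries lay below the M2 range. Tunicamycin and Oligo libraries were lowest, next to each other without overlap, and their direct difference was not called (log2 -0.14, edgeR adjusted *P* = 0.36). The fold against M2 was 4.90 with tunicamycin (log2 -2.29, SE 0.13, edgeR adjusted *P* = 1.2e-14) and 4.45 in Oligo libraries (log2 -2.15, SE 0.12, adjusted *P* = 8.2e-14), and 1.89 in Oli_ISR and 1.55 with Sal003. Naive libraries had 75.4, 126.6, 77.9 and 69 CPM, of which only that of mouse 2 lay in the M2 range.

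*Uqcrq* (ENSMUSG00000044894, chr11:53318749-53322047), another small subunit of complex III, moved the other way with tunicamycin. It had 37.6, 58.6, 36.8 and 36.9 CPM in naive macrophages, 81, 79.8, 77.3 and 79 CPM after IL-4/IL-13, and 133.7, 130.1, 134.6 and 127.6 CPM with tunicamycin. Every tunicamycin library was above every other library of the 24. Its log2 fold change against M2 was 0.73 (SE 0.09, edgeR adjusted *P* = 1.4e-07), while it was 0.10 in Oligo (adjusted *P* = 0.36), 0.06 in Oli_ISR and -0.03 with Sal003, none of them called. The direct comparison of tunicamycin with Oligo libraries gave 0.63 (SE 0.09, edgeR adjusted *P* = 2.1e-06).

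*Cyc1* and *Uqcrfs1* were lower in all 4 inhibitor groups. *Cyc1* fell from the M2 levels given above to 69.6, 70.5, 67.2 and 76.7 CPM with tunicamycin and to 96.5, 92.8, 102.2 and 93.3 CPM in Oligo libraries, log2 fold changes of -1.15 and -0.71. *Uqcrfs1*, the Rieske iron-sulfur protein, fell by 1.07 and 0.97 on the log2 scale. Of the small subunits, *Uqcr11* fell by 1.27 and 1.33 and *Uqcr10* by 1.12 in both.

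**Figure D3:**
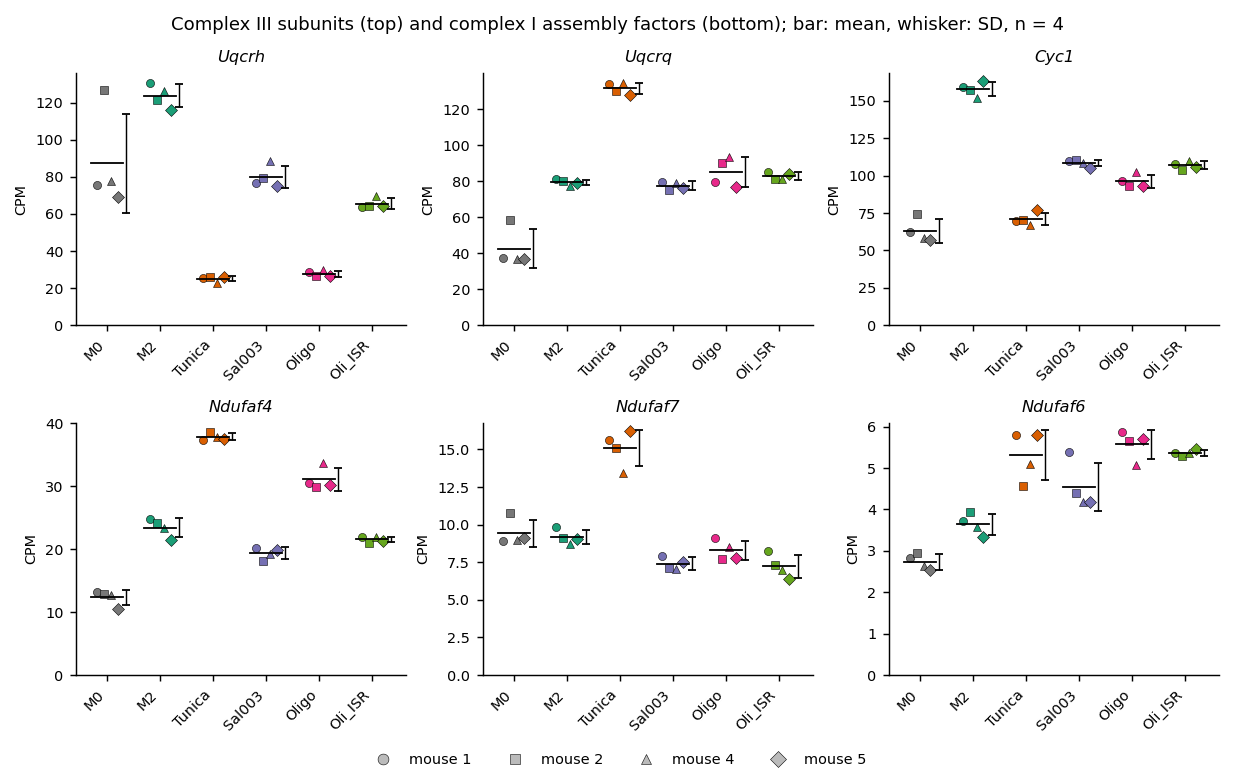
CPM per library (vertical axes, from 0) of the complex III genes *Uqcrh*, *Uqcrq* and *Cyc1* and the complex I assembly factor genes *Ndufaf4*, *Ndufaf7* and *Ndufaf6*, by group, with 1 point per mouse, the mean as a bar and the SD as a whisker (n = 4). *Uqcrh* is lowest with tunicamycin and in Oligo libraries, whereas *Uqcrq* and *Ndufaf7* stand highest with tunicamycin.

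In complex IV one gene rose by far the most of the 91. Subunit 6a of cytochrome c oxidase exists as a widely expressed form from *Cox6a1* and a form typical of heart and skeletal muscle from *Cox6a2*. *Cox6a2* (ENSMUSG00000030785, chr7:127804607-127805559) and *Cox6a1* (ENSMUSG00000041697, chr5:115483701-115487050) are shown by the 250 bases before the start of their canonical transcripts, since *Cox6a2* rose with the inhibitors and *Cox6a1* did not. Matches to any of 4 short motifs are in capitals, here TGATGNAA (the CARE element, bound by ATF4 with a C/EBP partner) in *Cox6a2* and the palindrome bound by NRF1 in *Cox6a1*. Both are read from build GRCm39 on the minus strand, at chr7:127805560-127805809 and chr5:115487041-115487290.
Cox6a2: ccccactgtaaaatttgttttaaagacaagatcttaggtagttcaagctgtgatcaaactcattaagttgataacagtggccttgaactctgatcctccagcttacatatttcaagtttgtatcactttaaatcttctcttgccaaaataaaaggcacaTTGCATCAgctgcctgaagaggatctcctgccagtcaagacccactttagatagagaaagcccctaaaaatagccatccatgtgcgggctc
Cox6a1: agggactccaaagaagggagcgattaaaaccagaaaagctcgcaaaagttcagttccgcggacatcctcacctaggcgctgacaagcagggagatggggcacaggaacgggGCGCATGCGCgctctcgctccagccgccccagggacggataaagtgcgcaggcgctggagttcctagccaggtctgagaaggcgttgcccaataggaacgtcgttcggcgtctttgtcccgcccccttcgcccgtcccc

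*Cox6a2* was near 0 in naive macrophages, at 0.34, 1.02, 0.80 and 1.04 CPM, and with IL-4/IL-13 alone, at 0.61, 0.91, 0.58 and 0.30 CPM (5 to 18 counts per library). It reached 77.5, 82.1, 82.2 and 76.9 CPM with tunicamycin and 58.7, 57.2, 69.8 and 60.2 CPM in Oligo libraries. With Sal003 it had 20, 16.1, 15.8 and 18.3 CPM, and in Oli_ISR libraries 17.4, 12.3, 16.4 and 13.8 CPM.

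All 16 libraries with an inhibitor lay above all 8 without one. Against M2 the log2 fold change was 7.01 (SE 0.17, edgeR adjusted *P* = 9e-22) with tunicamycin, 6.63 (SE 0.17, 2.4e-20) in Oligo, 4.83 (SE 0.20, 7.8e-16) with Sal003 and 4.59 (SE 0.20, 1.5e-15) in Oli_ISR libraries. Oligo libraries were 4.12-fold above Oli_ISR libraries (log2 2.04, SE 0.11, edgeR adjusted *P* = 1.5e-13). Tunicamycin libraries were 1.30-fold above Oligo libraries (edgeR adjusted *P* = 0.0012). The opposite strand holds *Itgad* over 10.2% of *Cox6a2* exon sequence, and *Itgad* was at 2.58 CPM with IL-4/IL-13 and 0.15 CPM with tunicamycin.

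*Cox6a1* was high in all groups. It had 144.8, 159.2, 156.8 and 153.3 CPM with IL-4/IL-13, 120.2, 118.9, 114.2 and 116.6 CPM with tunicamycin and 109, 105.7, 111.5 and 105.8 CPM in Oligo libraries, log2 fold changes of -0.39 and -0.51. By TPM, *Cox6a2* made up 0.40% ± 0.16 (SD, n = 4) of the summed *Cox6a1* and *Cox6a2* level with IL-4/IL-13. Its share was 41.4% ± 1.2 with tunicamycin, 37.2% ± 1.6 in Oligo, 12.04% ± 1.4 with Sal003 and 10.4% ± 1.1 in Oli_ISR libraries.

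**Figure D4:**
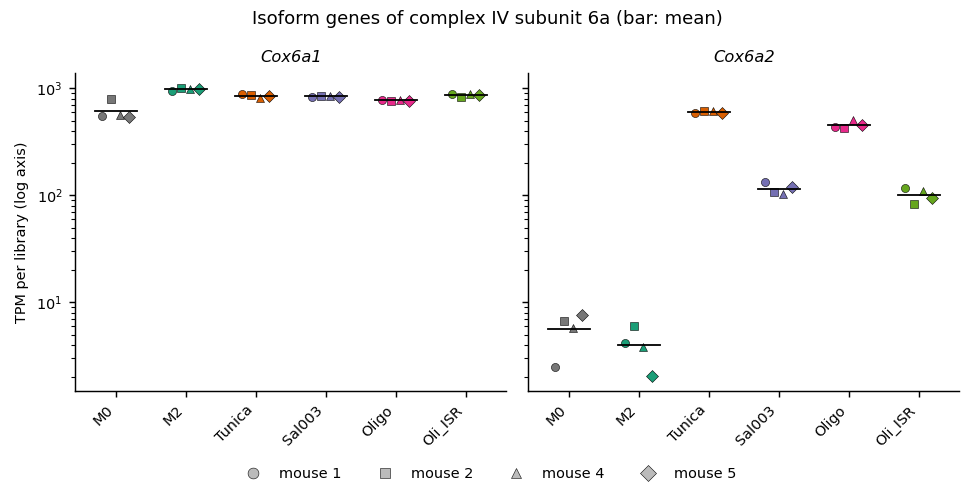
TPM per library (log axis) of *Cox6a1* and *Cox6a2* by group, with 1 point per mouse and the mean as a bar. *Cox6a1* stays between 545 and 1017 TPM in every library, whereas *Cox6a2* goes from 2.04 to 7.66 TPM in the groups without an inhibitor to between 84 and 618 TPM in those with one.

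Other tissue isoforms of complex IV did not follow *Cox6a2*. *Cox7a1*, also typical of heart and muscle, had 24 to 34 counts per library with IL-4/IL-13 and 1 to 5 with tunicamycin, a log2 fold change of -2.93 (SE 0.37, edgeR adjusted *P* = 9.6e-08), and its level is thus set by few reads. *Cox6b2*, a testis isoform below the minimum, had 34 counts over the M2 libraries and 7 over the tunicamycin libraries, and *Cox4i2* and *Ndufa4l2*, both known as hypoxia-linked isoforms, had at most 2 and 4 counts in any library. *Cox4i1* fell by 0.85 and *Cox6b1* by 1.22 on the log2 scale with tunicamycin, and *Ndufa4*, a complex IV subunit despite its name, fell by 1.02 with tunicamycin and by 1.17 in Oligo libraries. In all, 13 of 15 complex IV genes were lower and 1 higher with tunicamycin (background 37.6% and 38.7%). In Oligo libraries 14 were lower and 1 higher (background 32.2% and 34%).

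Of the 91 promoters, 2 held the CARE letters within 250 bases before and 50 after the start (2.2%), against 3.85% of 21654 promoters of protein-coding genes and 2.51% of those of tested genes. Besides *Cox6a2*, at position -91 from the start, this was *Ndufb1*, at -134, which encodes a small complex I subunit. *Ndufb1* had a log2 fold change of 0.25 with Sal003 (edgeR adjusted *P* = 0.011), which did not pass the test without mouse 1 or mouse 5, and of -0.19 with tunicamycin, and 41.8% of its exon sequence lies opposite another gene. The NRF1 palindrome was in 6.59% of member promoters, 1.15% of all promoters and 1.88% of those of tested genes. CCGGAAG, an ETS core bound by GABPA, was in 17.6%, 10.3% and 16.1%, and GCCATNTTG, bound by YY1, in 5.49%, 2.28% and 3.24%. Both strands were searched, and a match is a run of letters and no measured binding.

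The ring of ATP synthase to which oligomycin binds is made of subunit c, which 3 genes encode with different import sequences but the same mature protein. Their last coding exons, up to the stop codon, are shown because the genes responded differently. Over these 115 bases *Atp5mc1* differs from *Atp5mc3* at 22 and *Atp5mc2* at 28. That is more than the search for shared sequence allowed (at most 2 mismatches in 100 bases). Capitals mark bases that differ from *Atp5mc3*, and all are read on the minus strand of GRCm39, at chr11:95963930-95964044, chr15:102571449-102571563 and chr2:73738937-73739051.
Atp5mc1: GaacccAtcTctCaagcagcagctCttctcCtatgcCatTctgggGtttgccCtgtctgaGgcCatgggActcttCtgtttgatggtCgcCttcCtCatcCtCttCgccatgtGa
Atp5mc2: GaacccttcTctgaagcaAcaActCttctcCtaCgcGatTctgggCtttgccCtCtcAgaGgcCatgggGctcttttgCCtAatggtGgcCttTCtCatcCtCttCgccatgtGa
Atp5mc3: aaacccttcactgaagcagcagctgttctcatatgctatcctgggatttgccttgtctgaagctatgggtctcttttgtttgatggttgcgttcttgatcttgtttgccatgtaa

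Over the end of the coding sequence, which holds the mature subunit, *Atp5mc1* was 79.8% and *Atp5mc2* 78.5% identical to *Atp5mc3*, and all 3 translate to the same 75 codons before the stop. Their shares of TPM depend on the annotated exon lengths used. These were 6020, 6531 and 2636 bases for *Atp5mc1*, *Atp5mc2* and *Atp5mc3*, against canonical transcripts of 612, 731 and 988 bases. By these exon lengths *Atp5mc3* (ENSMUSG00000018770, chr2:73738779-73741933) held 94.7% ± 0.1 of their summed TPM with IL-4/IL-13. It had 78.7, 115, 79.3 and 72.5 CPM in naive macrophages and 235.1, 220.7, 214.3 and 208 CPM after IL-4/IL-13. With tunicamycin it had 83, 77.6, 74.8 and 78 CPM, in Oligo libraries 83.1, 81.7, 92.7 and 77.5 CPM, in Oli_ISR libraries 122.1, 99.1, 129.3 and 114.1 CPM, and with Sal003 146, 147.2, 152 and 139.6 CPM.

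Every library with an inhibitor was below every M2 library of *Atp5mc3*, and tunicamycin, Oligo and Oli_ISR libraries overlapped the naive range. The Oli_ISR libraries did so only through the naive library of mouse 2 (115 CPM). The log2 fold change against M2 was -1.49 (SE 0.10, edgeR adjusted *P* = 8.3e-13) with tunicamycin, -1.39 (SE 0.10, 6e-12) in Oligo, -0.92 (SE 0.10, 1.7e-08) in Oli_ISR and -0.59 (SE 0.10, 1.7e-05) with Sal003. *Atp5mc1* (ENSMUSG00000006057, chr11:95959678-95966757) had 27.1, 27.1, 25.9 and 24.7 CPM with IL-4/IL-13 and 25.8, 26.3, 28.4 and 26.9 CPM with tunicamycin, ranges that overlap (log2 0.03, edgeR adjusted *P* = 0.78).

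In Oligo libraries *Atp5mc1* was at 17.4, 17.9, 18.8 and 16.9 CPM, below all M2 libraries (log2 -0.56, edgeR adjusted *P* = 4.4e-05), and tunicamycin libraries stood above Oligo libraries by 0.59 (adjusted *P* = 2.2e-05). By the exon lengths given above, the share of *Atp5mc1* in subunit c TPM was 5.0% ± 0.1 with IL-4/IL-13 and 13.0% ± 0.9 with tunicamycin. *Atp5mc2* (ENSMUSG00000062683, chr15:102571295-102580787) had 15 to 53 counts per library and was not called in any inhibitor group. For *Atp5mc1* and *Atp5mc2*, 83.5% and 87.4% of 100-base stretches of the transcript occur elsewhere in the genome, so reads may have been lost and their levels are uncertain, whereas none of *Atp5mc3* does.

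**Figure D5:**
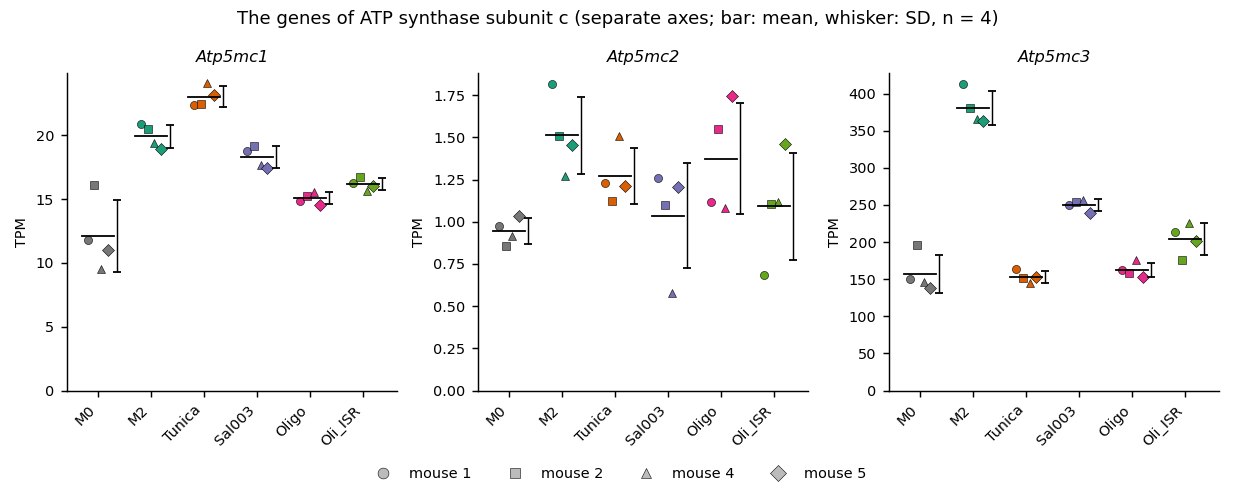
TPM per library (separate vertical axes, each from 0) of the 3 subunit c genes by group, with 1 point per mouse, the mean as a bar and the SD as a whisker (n = 4). *Atp5mc3* is highest with IL-4/IL-13 alone, *Atp5mc1* is as high or higher with tunicamycin, and *Atp5mc2* lies between 0.58 and 1.82 TPM in all libraries.

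The remaining ATP synthase genes fell together. All 5 genes of the catalytic F1 head and all 4 of the peripheral stalk were lower with tunicamycin, in Oligo and in Oli_ISR libraries. So were all 5 of the small membrane subunits, and 5, 4 and 4 of these sets were lower with Sal003. The background of lower genes was 37.6% with tunicamycin, 32.2% in Oligo, 26.4% in Oli_ISR and 24.6% in Sal003 libraries. The membrane subunit gene *Atp5me* fell by 1.53 on the log2 scale with tunicamycin and by 1.41 in Oligo libraries, against 0.59 and 0.55 for *Atp5f1b*. *Atp5if1*, which binds the F1 head and restrains ATP hydrolysis, had 129.4, 129.5, 117.9 and 128.5 CPM with IL-4/IL-13 and 81.1, 84.4, 88.4 and 84.2 CPM in Oligo libraries. No Oligo library reached the M2 range, and the log2 fold change was -0.58 (SE 0.08, edgeR adjusted *P* = 8.2e-07).

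Of the 8 complex I assembly factor genes, 4 were higher and 1 lower with tunicamycin (50% and 12.5%, background 38.7% and 37.6%), with a median log2 fold change of 0.42. In Oligo libraries 3 were higher and 1 lower (37.5% and 12.5%, background 34% and 32.2%), with a median of 0.18. With Sal003 1 was higher and 2 lower, with a median of 0.07, and in Oli_ISR libraries 2 were higher and 1 lower, with a median of -0.04. The background was 25.9% higher and 24.6% lower with Sal003 and 27.9% and 26.4% in Oli_ISR libraries. With 8 genes these shares are a description, and their difference from the subunits was not tested. Their summed TPM was 1.46 ± 0.05 times that of M2 of the same mouse with tunicamycin and 1.21 ± 0.10 times in Oligo libraries, 0.97 ± 0.04 with Sal003 and 0.99 ± 0.04 in Oli_ISR libraries.

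*Ndufaf4* (ENSMUSG00000028261, chr4:24898079-24905001), a factor for an early assembly intermediate, had 24.8, 24.2, 23.4 and 21.4 CPM with IL-4/IL-13. It had 37.3, 38.7, 37.9 and 37.6 CPM with tunicamycin, 30.5, 29.9, 33.7 and 30.2 CPM in Oligo, 22, 21.1, 21.9 and 21.3 CPM in Oli_ISR and 20.2, 18.1, 19.3 and 19.9 CPM in Sal003 libraries. It was thus above the M2 range with tunicamycin and in Oligo libraries and below it with Sal003. The log2 fold changes were 0.69 (SE 0.06, edgeR adjusted *P* = 7.3e-11), 0.41 (SE 0.06, 1.3e-06), -0.12 (SE 0.06, 0.088) and -0.28 (SE 0.06, 0.00051) in that order of groups, and Oligo differed from Oli_ISR libraries by 0.53 (SE 0.06, 7.2e-08).

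*Ndufaf7* (ENSMUSG00000024082, chr17:79244538-79256938), an arginine methyltransferase of mitochondria, had 9.86, 9.13, 8.69 and 9.04 CPM with IL-4/IL-13 and 15.6, 15.1, 13.4 and 16.2 CPM with tunicamycin. These ranges were apart, with a log2 fold change of 0.72 (SE 0.08, edgeR adjusted *P* = 3e-08). In Oligo libraries it was not called (-0.15, adjusted *P* = 0.14), and it was lower with Sal003 (-0.31) and in Oli_ISR libraries (-0.35). Tunicamycin stood 1.82-fold above Oligo libraries (edgeR adjusted *P* = 1.9e-09). *Ndufaf6* was higher in each inhibitor group, from 0.31 with Sal003, a call that did not hold in DESeq2 (log2 0.30) or without mouse 1 (0.22) or mouse 5 (0.31), to 0.61 in Oligo libraries. *Ndufaf3* rose by 0.76 with tunicamycin and 0.51 in Oligo libraries.

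Within the complex I subunits the largest falls were those of *Ndufb2* and *Ndufb5*, accessory subunits of the membrane arm, at -1.27 and -1.23 on the log2 scale with tunicamycin. *Ndufs5* (0.34) and *Ndufb11* (0.21) were the 2 subunits called higher with tunicamycin. For *Ndufs5*, 84.6% of transcript stretches occur elsewhere in the genome, and 67.8% of *Ndufb11* exon sequence lies opposite another gene. Of the 7 core subunits, 6 were lower with tunicamycin (background 37.6%) and 7 in Oligo libraries (background 32.2%). The exception was *Ndufs8* (0.04 with tunicamycin and -0.51 in Oligo libraries).

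The inhibitor groups were also compared directly. Between the oligomycin sets, 45 members were lower and 4 higher in Oligo than in Oli_ISR libraries (background 21.3% and 19.9%), with a median log2 difference of -0.23. Without overlap, 49 were lower (background 21.1%) and 5 higher (background 20.5%). The 45 became 25 without mouse 1 and 29 without mouse 5. The deepest was *Uqcrh* (-1.24, SE 0.12, edgeR adjusted *P* = 1.3e-08), followed by *Atp5mj*, *Atp5me* and *Sdhd* between -0.69 and -0.63. Those higher were *Cox6a2*, *Ndufaf4*, *Ndufaf1* (0.21) and *Ndufab1* (0.18), the mitochondrial acyl carrier protein.

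Between tunicamycin and Oligo libraries, smaller shares of the members were called than of all genes tested. With tunicamycin 15 members (16.5%) were higher and 19 (20.9%) lower, against a background of 31.4% and 32.1%, with a median of -0.05. *Ndufa9*, a subunit near the quinone site of complex I, had 44.9, 46.5, 43.2 and 43.9 CPM with tunicamycin and 65.4, 65.6, 69.4 and 65.1 CPM in Oligo libraries, against 72.8 to 77.7 CPM in M2 libraries. The tunicamycin libraries were lowest without overlap, and the direct log2 difference was -0.57 (SE 0.06, edgeR adjusted *P* = 1.5e-09). *Cyc1* and *Uqcrc1* were also lower with tunicamycin than in Oligo libraries, both by 0.44 on the log2 scale.

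Sal003 libraries had 60 members above and 4 below Oligo libraries (background 26.4% and 25.1%), with a median of 0.31, and the 4 became 2 without mouse 4. Without overlap, 62 were above (background 26.7%) and 3 below (background 25.8%). Against Sal003, tunicamycin had 59 members lower and 9 higher (background 36% and 35.9%), with a median of -0.39. *Cox6a2* was 4.53-fold higher with tunicamycin than with Sal003 (log2 2.18, SE 0.10, edgeR adjusted *P* = 9.1e-16), and *Uqcrh* was 3.16-fold lower (log2 -1.66, SE 0.13, 9.4e-12).

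Genes outside the set that serve the same complexes are given by lists, beside 38.7% higher and 37.6% lower of all genes tested with tunicamycin and 34% and 32.2% in Oligo libraries. Several of the lists hold few genes, and their counts are a description. Of 23 complex IV assembly factor genes tested, 12 were higher and 6 lower with tunicamycin and 12 higher and 5 lower in Oligo libraries, with medians of 0.17 in both, and the largest changes with tunicamycin were *Sco2* (1.38) and *Cox18* (1.23). Of the 9 complex I assembly factors not named *Ndufaf*, 5 were higher and 2 lower with tunicamycin, the largest changes being *Tmem126b* (-1.69) and *Tmem126a* (0.76). Complex II factors gave 1 higher and 2 lower of 4, complex III factors 4 higher and 2 lower of 6, led by *Ttc19* (1.24) and *Lyrm7* (0.93), and ATP synthase factors 3 higher and 0 lower of 4, led by *Fmc1* (0.74) and *Tmem70* (0.47). Of the cytochrome c genes, *Hccs*, the heme lyase, was higher with tunicamycin (0.35), whereas *Cycs* was not called (-0.34, edgeR adjusted *P* = 0.078).

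Of 10 regulators of these genes, 8 were tested. With tunicamycin 4 were higher and 2 lower (background 38.7% and 37.6%), with a median log2 fold change of 0.105. In Oligo libraries 3 were higher and 4 lower (background 34% and 32.2%), with a median of -0.015. The list as a whole was thus mixed. *Ppargc1b*, a coactivator of mitochondrial biogenesis, had a mean of 3.13 CPM in naive, 36.5 CPM in IL-4/IL-13–treated and 1.46 CPM in tunicamycin-treated macrophages. It was 14.1 CPM with Sal003, 5.13 CPM in Oligo and 11.4 CPM in Oli_ISR libraries, log2 fold changes against M2 of -4.65 with tunicamycin, -1.37, -2.83 and -1.67 in that order. *Esrra*, the orphan receptor ERRα, fell by 0.76 with tunicamycin and in Oligo libraries alike. *Pprc1* (1.36 and 0.87) and *Nrf1* (0.57 and 0.62) were higher with tunicamycin and in Oligo libraries.

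Of the 13 subunits encoded by mitochondrial DNA, only 7 had enough counts to be tested, and the rest fell below the filter. The reason was not tested, and the changes given here may rest on only a part of the reads of these transcripts. All 7 were lower with tunicamycin, in Oligo and in Oli_ISR libraries, and 5 with Sal003, with median log2 fold changes of -1.09, -1.63, -2.07 and -1.36. The largest falls were those of *mt-Nd2* (-1.499) and *mt-Nd1* (-1.45) with tunicamycin and of *mt-Nd1* (-2.31) and *mt-Cytb* (-2.24) in Oligo libraries. With Sal003, *mt-Cytb* had a log2 fold change of -1.77, whereas *mt-Nd1* (-0.11, edgeR adjusted *P* = 0.61) and *mt-Nd2* (-0.13) were not called. *AA467197*, the NMES1 gene for a protein related to NDUFA4, rose with IL-4/IL-13 (2.98), and against M2 it was at -1.49 with tunicamycin and 1.29 in Oligo libraries.

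Exon sequence shared with other genes limits some members. A total of 32 of the 91 shared over 20% of their sequence with other loci or with a gene on the opposite strand, and whether reads were counted by strand is not given in the sources used here. Among the 30 members free of any sharing over this limit and of any overlap, 28 were higher with IL-4/IL-13 (background 30.1%). Of the same 30, 23 were lower and 3 higher with tunicamycin (background 37.6% and 38.7%).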

How the data were processed

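RNA-seq read counts per gene were deposited as 1 table of 24 libraries. Per the labels and the study's methods, the authors had prepared libraries from mRNA, trimmed single-end reads with cutadapt 1.8, aligned them with STAR 2.7 to GRCm39 and made the counts with HTSeq 0.9.1. A deposited RSEM table was not used, since its header did not match its columns. All columns of the count table were assigned to a sample. Rows of no gene (12.7% to 15.2% of reads) were left out, and 56323 gene IDs were found in GENCODE.

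The members and gene lists were chosen with earlier results of these data known. Genes were filtered with filterByExpr and normalized by TMM, and a model with 1 coefficient per group over all 24 libraries was tested by edgeR 4.0.16 (quasi-likelihood, R 4.3.3), with Benjamini-Hochberg adjustment over 13679 genes in each of 9 comparisons. All 91 members were tested. The median biological coefficient of variation was 7.06%. The fit was tested on simulated data. CPM used TMM factors, and TPM was computed from the counts and the length of all annotated exons of a gene. No replicate pair was a repeat of 1 library (chi-square per gene 2.21 to 37.4 over 36 pairs). Libraries of a number come from the same mouse, and their deviations from group means correlated (median r 0.24, 56 of 60 pairs over 0.1, against -0.05 between mice). *P* values thus measure the spread between the cultures of 4 mice. Named genes were the 4 largest rises and 4 largest falls in a comparison at an adjusted *P* under 0.05, in 1 direction in all mice and with at least 50 mean counts, plus subunit c, *Atp5if1*, complex II, *Cyc1*, *Uqcrfs1*, *Ndufa4* and complex IV isoform genes. From other lists the 2 largest changes were named. *Ndufs5*, *Ndufs8*, *Cox5b-ps*, *Esrra*, *Nrf1* and the genes below the minimum were added after their values were seen. Shared sequence was searched with minimap2 2.31-r1302 (100-base stretches, at most 2 mismatches). The alternatives were DESeq2 1.42.0, upper-quartile factors, other count filters, a mouse block, only the groups compared, leaving out each mouse, and smaller member sets.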

Additional observations from a re-analysis of the deposited data

Results flagged for a closer look

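In 13 of 102 groups of 4 libraries examined, 1 library lay far from the other 3, where chance gives about 1 in 20 for a single group. The groups share genes and libraries, so the number flagged cannot be set against that rate. Values in parentheses are the gap of the outlying library to the nearest other one as a share of the group's range. In naive macrophages this was the library of mouse 2, with the highest summed TPM for complex I (0.854), complex II (0.91), complex IV (0.95), complex V (0.903) and all subunits (0.886) and the highest CPM of *Uqcrh* (0.845), *Uqcrq* (0.964) and *Atp5mc3* (0.839). The naive library of mouse 5 was lowest for *Ndufaf4* (0.858). Among Oligo libraries mouse 4 was highest for complex IV (0.925), the complex I assembly factors (0.963) and *Ndufaf4* (0.835), and among Oli_ISR libraries mouse 4 was highest for *Uqcrh* (0.847). The cause was not tested.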

How the results depend on the processing

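Over the 9 comparisons, 246 of 278 alternative values of counts, shares and levels stayed within 1.5 times or 1 SD of the reported ones, and no named gene past the threshold changed sign in any alternative. Without the *Ndufaf* genes, the share of members higher was 4.82% with tunicamycin, 2.41% in Oligo and 1.2% in Oli_ISR libraries against M2, 2.41% in Oligo against Oli_ISR and 6.02% with tunicamycin against Sal003, and 1.2% were lower with Sal003 than in Oligo libraries. With at least 10 counts in every library, 3.41% were higher in Oligo libraries. Without shared or overlapping members, 6.67% were higher in Oligo than in Oli_ISR libraries and 6.67% lower with Sal003 than in Oligo libraries. Counted within each mouse, 8 members were higher in Oligo than in Oli_ISR and 8 lower with Sal003 than in Oligo libraries. Leaving out each mouse gave 1.1% to 4.4% higher with Sal003, 27.5% to 61.5% lower in Oligo than in Oli_ISR libraries and 2.2% to 4.4% lower with Sal003 than in Oligo libraries, from fewer samples.

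By CPM in place of TPM, the ratio to M2 with tunicamycin was 0.726, 0.489, 0.574, 0.613 and 0.542 over complexes I to V, 0.591 over all subunits and 1.35 over assembly factors. In Oligo libraries it was 0.746, 0.553, 0.608, 0.629, 0.581 and 0.624 over complexes I to V and all subunits. It was 0.779 for complex IV in Oli_ISR libraries, and 0.548 for complex II and 0.78 for assembly factors in naive macrophages. With mouse as a replicate block, which the shared mice pair, members higher with IL-4/IL-13 stayed at 85.7% and those lower with tunicamycin at 75.8%, and no count moved by over 1.5 times. Of 227 gene results, 23 lost and 20 gained their call under some alternative. Depth limits *Cox7a1*, *Cox6b2*, *Atp5mc2* and the M2 level of *Cox6a2*. Without the naive library of mouse 2, an alternative chosen after seeing the data, 95.6% of members were higher with IL-4/IL-13.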
